A study of Mus musculus with 6 samples.

Results

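The 9 genes described here carry glutamine into the cell and interconvert glutamine, glutamate, aspartate, alanine and asparagine. They were chosen by name, as the rows of the deposited count table whose Ensembl identifier has the GENCODE M21 symbol Asns, Glul, Glud1, Got1, Got2, Gpt2, Slc1a5, Slc38a1 or Slc38a2, and all 9 were found among its 43346 rows. The table comes from RNA sequencing of cultured embryonic fibroblasts (MEFs) taken from C57BL/6 mice, a primary cell culture used here at passage 9. In 1 group of 3 libraries the cells had received 3 µM erastin for 24 h, and in the other, also of 3 libraries, the solvent DMSO. Erastin blocks the transporter that brings cystine into the cell in exchange for glutamate and is used to induce ferroptosis, a death by iron-dependent lipid peroxidation. Both groups grew in medium with serum, added nonessential amino acids and 2-mercaptoethanol, and no genetic change is labelled in either. The labels call the experiment triplicated without saying whether libraries came from separate cultures or embryos, so the p-values measure the spread between these libraries, which may be partly technical.

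Glutamine enters fibroblasts mainly through sodium-coupled carriers of neutral amino acids and serves as a nitrogen donor. Deamidation turns it into glutamate, which glutamine synthetase can turn back, and glutamate passes its amino group to other carbon skeletons through the aminotransferases or loses it to glutamate dehydrogenase. Asparagine synthetase consumes aspartate and glutamine, and its gene is a textbook target of the amino acid response, in which the transcription factor ATF4 acts on promoter elements bound together with C/EBP proteins. Glutamate is also what the erastin-blocked antiporter exports, and glutamine breakdown is known to contribute to ferroptosis when cystine is lacking.

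Library totals ran from 13333911 to 20509970 counts, and a single one of the 9 genes had between 294 and 9558 counts in a library, far above the floor of 3 counts used as the detection limit. The first principal component of log2 expression, with 56.3% of the variance, separated the treatments. On it DMSO replicate 3 lay at -66.1, apart from the other DMSO libraries at -44.1 and -45.8. All 10 fibroblast markers looked at were expressed. Their summed levels were 37800 to 40902 counts per 1000000 counts (CPM) with DMSO and 27202 to 28831 CPM with erastin. Of the 10, 8 were lower with erastin in the test described below, where 21.5% of all genes tested were lower. Macrophage markers (6 genes) summed to 25.5 to 44.1 CPM with DMSO and 29.4 to 59.7 CPM with erastin, with none past the test. Of 4 endothelial markers, Kdr and Tek were higher with erastin, while Pecam1 and Cdh5 stayed under 1 CPM in every library; the sums were 4.66 to 7.10 and 13.2 to 16.4 CPM. The muscle marker Des was higher and the neural marker Tubb3 lower, with the other muscle markers and the glial markers of the lists under 2 CPM in every library. The part of these shifts in the results below was not tested.

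Of the 9 genes, the glutamine carriers, the amide synthetases and the aminotransferases Got1 and Gpt2 were higher after erastin, and none was lower. In numbers, 7 of 9 (77.8%) passed at a Benjamini-Hochberg (BH) adjusted p-value under 0.05 in edgeR's quasi-likelihood test, all of them upward. At an unadjusted p-value under 0.05, and with DESeq2, the number lower was 0 as well. Among all 14000 genes tested 43.1% passed, 21.6% upward. The 9 genes were chosen with earlier results of these data known, so these shares describe them and test nothing. The rises ran from 1.43-fold for Glul to 2.15-fold for Slc1a5, and Glud1 and Got2 were the genes that did not pass. The median log2 fold change of the 9 genes was 0.84, against -0.0014 over all genes tested. The groups did not overlap in 7 of the 9 genes, all with the erastin libraries above, where 52.5% of all genes tested were separated and 26.7% in that direction. In bulk RNA a change in the number of cells of a type and a change in RNA per cell cannot be told apart.

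**Figure D1:**
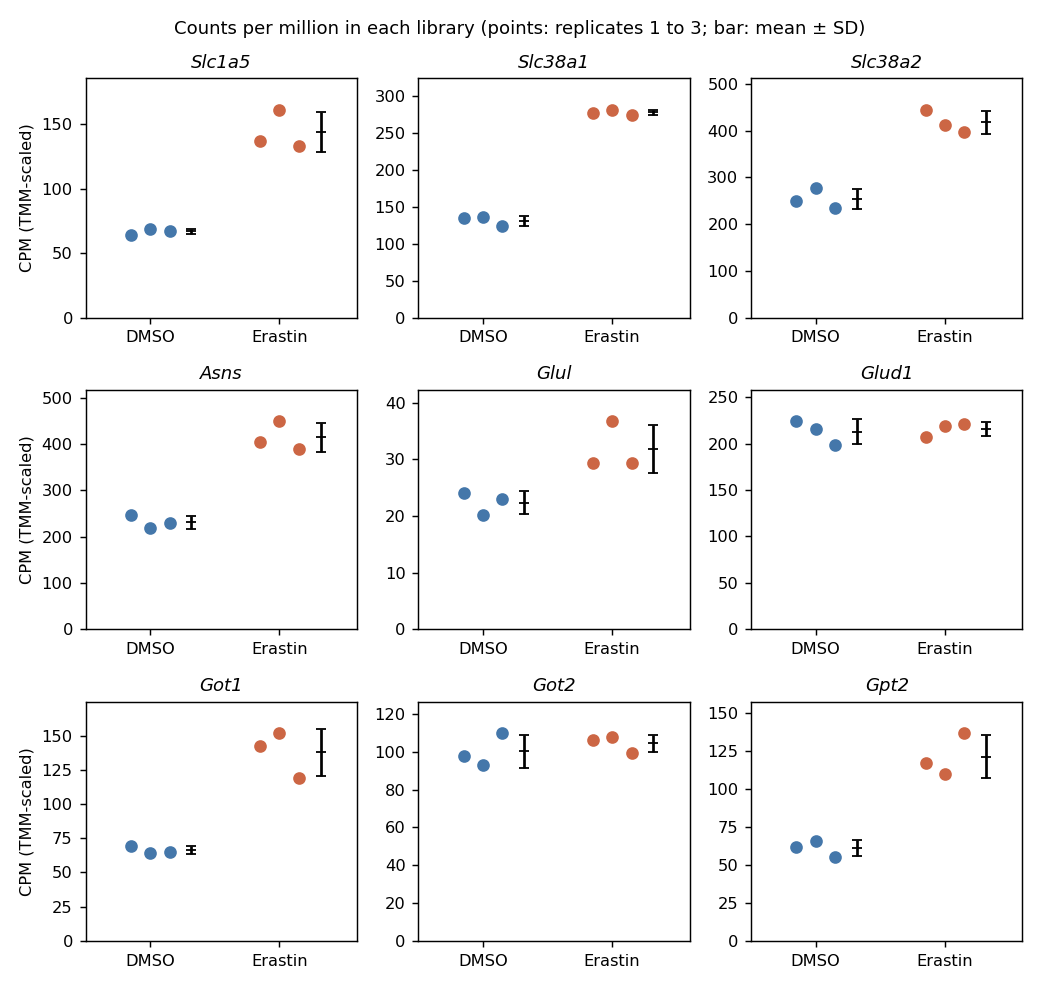
Level of each of the 9 genes in every library, as CPM scaled with TMM factors on a linear axis from 0; points are replicates 1 to 3 of DMSO (blue) and erastin (orange), and bars give the mean ± SD. In 7 panels all erastin points lie above all DMSO points, while those of Glud1 and Got2 overlap.

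The 3 carriers of glutamine all rose. Slc1a5 (ENSMUSG00000001918.13, chromosome 7, 16781340 to 16798274, plus strand, GRCm38) encodes ASCT2, an exchanger that takes glutamine in against other neutral amino acids. Its level was 64.4, 68.6 and 67.3 CPM in DMSO replicates 1 to 3 and 137, 161 and 133 CPM in erastin replicates 1 to 3. The lowest erastin library thus lay well above the highest DMSO library, and replicate 2 was the highest of the erastin libraries. The means were 66.8 ± 2.18 and 143 ± 15.5 CPM (SD, n = 3), a log2 fold change of 1.10 (SE 0.091, edgeR, BH-adjusted p = 2.5e-07), the largest of the 9.

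Slc38a1 and Slc38a2 encode SNAT1 and SNAT2, paralogous carriers that couple uptake of small neutral amino acids to sodium. Slc38a1 (ENSMUSG00000023169.10, chromosome 15, 96571418 to 96642913, minus strand) measured 135, 136 and 124 CPM in the DMSO libraries and 278, 282 and 275 CPM in the erastin libraries. The erastin libraries were closer to each other than the DMSO ones, and the log2 fold change was 1.08 (SE 0.072, edgeR, BH-adjusted p = 3.52e-08). Slc38a2 (ENSMUSG00000022462.6, chromosome 15, 96687392 to 96699730, minus strand), the family member best known for induction by amino acid lack, stood higher from the start. It measured 250, 277 and 234 CPM with DMSO and 445, 412 and 397 CPM with erastin, a log2 fold change of 0.72 (SE 0.079, edgeR, BH-adjusted p = 3.78e-06). The log2 ratio of Slc38a1 to Slc38a2 counts within a library was -0.88, -1.02 and -0.92 with DMSO and -0.68, -0.55 and -0.53 in erastin libraries, without overlap. It was higher by 0.36 with erastin (exact two-sided permutation test, p = 0.1, the smallest that 3 against 3 libraries can give; 0.15 adjusted over the 3 ratios tested, of which 2 are given).

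These 2 genes are neighbours on chromosome 15, with 44.5 kb and 0 protein-coding genes between them, and the next protein-coding gene beyond Slc38a2 is another paralog, Slc38a4. Slc38a4, also a sodium-coupled carrier of neutral amino acids, went the other way. It measured 45.9, 34.8 and 23.0 CPM with DMSO and 8.94, 8.80 and 7.78 CPM with erastin, so that the DMSO libraries were spread widely but all lay above the erastin ones (log2 fold change -2.02, SE 0.21, edgeR, BH-adjusted p = 2.08e-06). Of the other Slc38 genes, Slc38a9, whose product senses arginine at the lysosome, rose from 5.56 ± 1.28 to 10.9 ± 0.496 CPM (n = 3, SD; edgeR, BH-adjusted p = 0.00289). Slc38a10 fell by 0.46 on the log2 scale (edgeR, BH-adjusted p = 0.000149). Slc38a7, a lysosomal glutamine exporter, passed with a log2 fold change of 0.30 (edgeR, BH-adjusted p = 0.0179) but not without DMSO replicate 1, DMSO replicate 2 or erastin replicate 1 (0.27, 0.27 and 0.23, edgeR, BH-adjusted p = 0.0619, 0.0761 and 0.117). Slc38a6 was at 4.13 ± 0.417 and 2.14 ± 1.08 CPM (SD, n = 3) and did not pass (edgeR, BH-adjusted p = 0.0845).

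**Figure D2:**
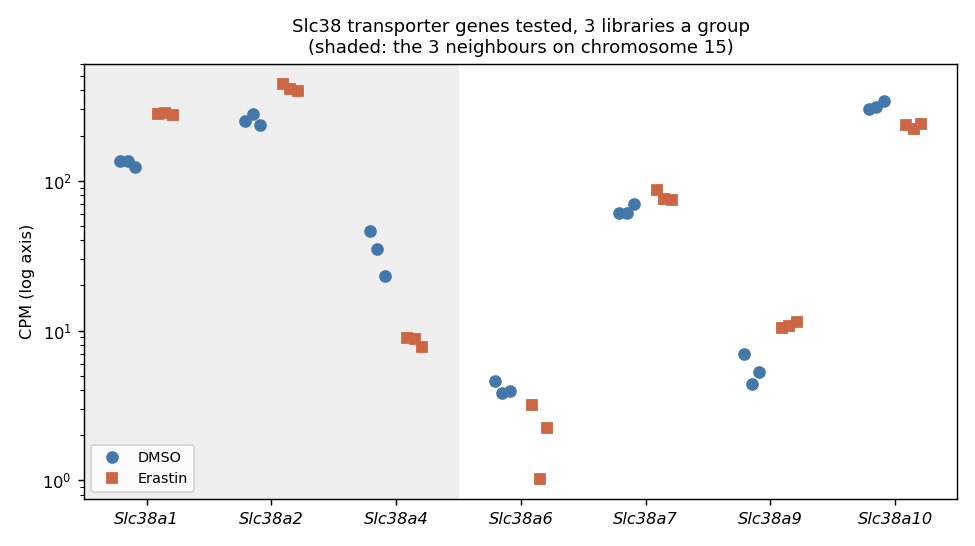
CPM (log axis) of the 7 Slc38 genes tested, with 3 DMSO (circles) and 3 erastin libraries (squares) each; the shaded genes are the chromosome 15 neighbours. Slc38a1 and Slc38a2 are higher with erastin and Slc38a4 is lower, with no overlap between groups in any of the 3.

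Asns and Glul, the synthetases that make the amides asparagine and glutamine, also rose. Asns (ENSMUSG00000029752.8, chromosome 6, 7675169 to 7693254, minus strand) encodes asparagine synthetase and measured 246, 218 and 230 CPM with DMSO and 405, 449 and 389 CPM with erastin. Every erastin library was far above every DMSO library, and the log2 fold change was 0.84 (SE 0.077, edgeR, BH-adjusted p = 6.97e-07). Glul (ENSMUSG00000026473.11, chromosome 1, 153899944 to 153909723, plus strand), the glutamine synthetase gene, was the least counted of the 9. Its values were 24.0, 20.2 and 22.9 CPM with DMSO and 29.4, 36.7 and 29.4 CPM with erastin, with erastin replicate 2 apart from the other 2. The log2 fold change of Glul was 0.51 (SE 0.13, 95% interval 0.23 to 0.80, edgeR, BH-adjusted p = 0.00622), the smallest of the rises.

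Gls2, which deamidates glutamine, was near 1 CPM in all libraries and did not pass (edgeR, BH-adjusted p = 0.657). Asnsd1, whose product resembles asparagine synthetase, was 6.89 ± 1.66 CPM with DMSO and 4.17 ± 0.43 CPM with erastin (n = 3, SD; log2 change -0.73, edgeR, BH-adjusted p = 0.0462). Its call was lost without any 1 of DMSO replicates 1 and 2 and erastin replicates 1, 2 and 3 (edgeR, BH-adjusted p = 0.131, 0.168, 0.128, 0.0593 and 0.0936).

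Of the 4 enzymes that move the amino group of glutamate, the cytosolic aspartate aminotransferase and the mitochondrial alanine aminotransferase rose, and the 2 others did not pass. Got1 (ENSMUSG00000025190.9, chromosome 19, 43499752 to 43524605, minus strand), the cytosolic aspartate aminotransferase, measured 69.4, 64.2 and 65.1 CPM with DMSO and 142, 152 and 119 CPM with erastin. Erastin replicate 3 was the lowest of its group and still far above the DMSO libraries (log2 fold change 1.05, SE 0.10, edgeR, BH-adjusted p = 6.86e-07). Got2 (ENSMUSG00000031672.7, chromosome 8, 95864134 to 95888547, minus strand), which encodes the mitochondrial form, measured 97.8, 93.2 and 110 CPM with DMSO and 106, 108 and 99.2 CPM with erastin. Its groups overlapped throughout, with a log2 fold change of 0.059 and a 95% interval of -0.13 to 0.24, or 0.92- to 1.19-fold (edgeR, BH-adjusted p = 0.623). The log2 ratio of Got1 to Got2 counts was -0.50, -0.54 and -0.76 with DMSO and 0.42, 0.48 and 0.26 in erastin libraries. The ratio was thus higher in every erastin than in every DMSO library, with a difference in means of 0.99 on the log2 scale (exact two-sided permutation test, p = 0.1, the smallest possible; 0.15 adjusted over the 3 ratios). Ratios of counts are not corrected for gene length, so only their change between groups is read here.

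Gpt2 (ENSMUSG00000031700.7, chromosome 8, 85492576 to 85527560, plus strand) encodes the mitochondrial alanine aminotransferase and measured 62.1, 65.8 and 55.5 CPM with DMSO and 117, 110 and 137 CPM with erastin. Here erastin replicate 3 was the highest library, and the log2 fold change was 0.99 (SE 0.10, edgeR, BH-adjusted p = 1.76e-06). The cytosolic enzyme Gpt was scarce, at 1.69 ± 0.318 CPM with DMSO and 0.806 ± 0.181 CPM with erastin (SD, n = 3), and did not pass (edgeR, BH-adjusted p = 0.121). Glud1 (ENSMUSG00000021794.11, chromosome 14, 34310727 to 34345265, plus strand), mitochondrial glutamate dehydrogenase, which releases the amino group as ammonia, measured 224, 216 and 198 CPM with DMSO and 207, 219 and 221 CPM with erastin. The groups overlapped, and the log2 fold change of 0.02 had a 95% interval of -0.14 to 0.18, or 0.91- to 1.13-fold (edgeR, BH-adjusted p = 0.858). It was -0.034 with upper-quartile factors and -0.031 without DMSO replicate 3.

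**Figure D3:**
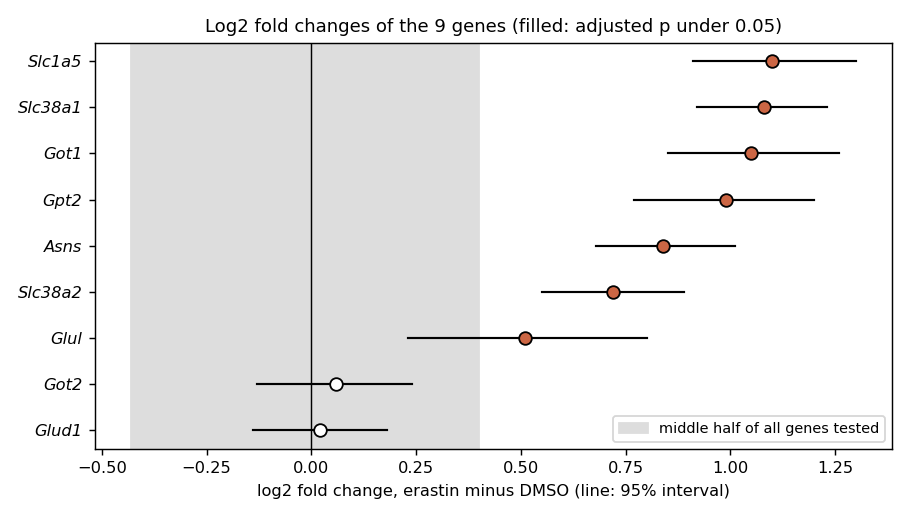
Log2 fold change of each gene, erastin minus DMSO, with its 95% interval; filled points passed at an adjusted p-value under 0.05 and the grey band spans the lower to the upper quartile of all genes tested (-0.43 to 0.40). The 7 filled points lie to the right of the band, from 0.51 (Glul) to 1.10 (Slc1a5), and the open points of Got2 and Glud1 lie close to 0.

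Levels were compared between genes per kilobase of the longest annotated transcript. In DMSO libraries Asns was the highest at 115 ± 7.01 CPM per kb (SD, n = 3), followed by Glud1 at 62.7 ± 3.95 CPM per kb. Slc38a2 and Got2, at 41.5 ± 3.52 and 39.7 ± 3.45 CPM per kb, overlapped and could not be ordered, nor could Slc38a1 and Gpt2 at 18.1 ± 0.968 and 16.8 ± 1.43 CPM per kb. Got1 (32.2 ± 1.34 CPM per kb) and Slc1a5 (23.8 ± 0.776 CPM per kb) lay between these pairs, and Glul was lowest at 8 ± 0.697 CPM per kb. With erastin Asns remained highest, at 205 ± 15.5 CPM per kb, and Glul lowest, at 11.4 ± 1.51 CPM per kb. Slc38a2, Got1 and Glud1 then overlapped at 68.3 ± 3.99, 66.8 ± 8.24 and 63.6 ± 2.30 CPM per kb, and Got2 stood at 41.3 ± 1.85 CPM per kb. The order of Got1 and Got2 with DMSO depends on the length used: with all annotated exons Got1 was already above Got2 there, at 26.1 against 20.8 CPM per kb, as it was with erastin, at 54.1 against 21.7 CPM per kb. With that length Asns was still first and Glul last in both groups. Slc38a1, whose annotated exons add up to 17236 bases against a longest transcript of 7266, then fell from rank 7 to rank 8.

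**Figure D4:**
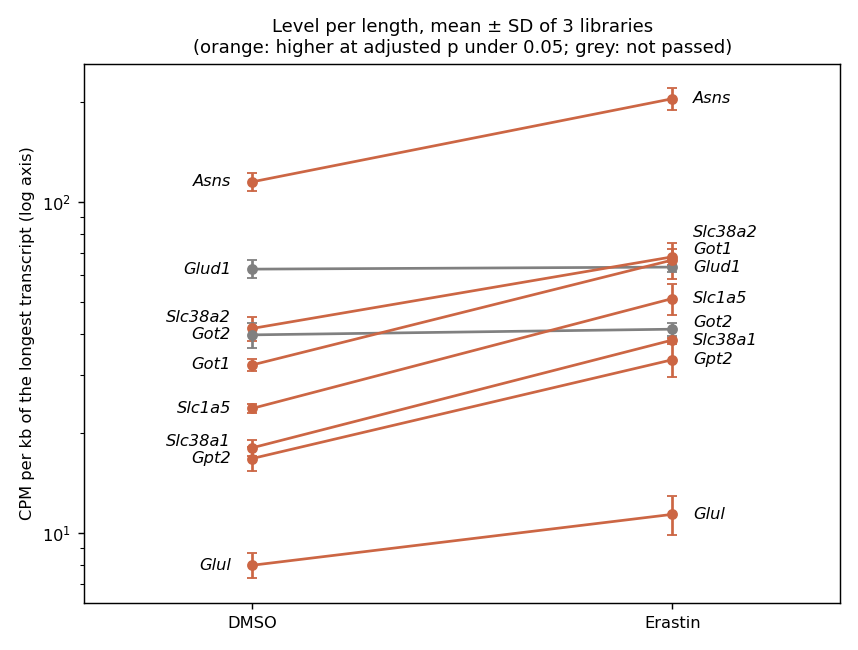
Level of each gene in CPM per kilobase of its longest transcript (log axis), as the mean ± SD of 3 DMSO and 3 erastin libraries joined by a line; orange lines passed at an adjusted p-value under 0.05 and grey lines did not. Asns is highest and Glul lowest in both groups; Got1 crosses Got2 with this length, but lies above it in both groups when all annotated exons are the length.

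The proximal promoters of 7 of the 9 genes were in the RefSeq promoter table (GRCm38.p6, 250 bases before to 50 after the start). They were searched on both strands for TGATGNAA, the core of the C/EBP-ATF response element, and for TGACGTCA (cAMP response element), CACGTG (E-box) and TGACNNNGC (core of the antioxidant response element). TGATGNAA was present in Asns, 23 to 16 bases before the RefSeq start, and in Got1, 102 to 95 bases before it on the other strand. That is 2 of 7 promoters, where 4.06% of 27025 promoters, and 2.12% of the 10107 belonging to genes tested here, hold this core. The GENCODE Asns gene starts further upstream than the RefSeq one, at 7693254, so the TGATGNAA match lies inside it. TGACNNNGC was present in Asns, 172 to 164 bases before the start on the other strand, and in Slc38a2, 27 to 19 bases before it. This core is common, being held by 12.5% of all promoters and 14.8% of those of genes tested. No match to TGACGTCA or CACGTG was present in the 7 windows, and none to any of the 4 cores in those of Glul, Glud1, Got2 and Gpt2, which says only that these letters are not in this window. A match is a stretch of letters, and binding was not measured. The 3 promoters with a match are shown because they belong to genes that rose together; the 250 bases before the start are given 5′ to 3′ on the gene's strand with the matches in capitals, and no 2 matches overlap.
Asns, chr6:7693210-7693459, minus strand: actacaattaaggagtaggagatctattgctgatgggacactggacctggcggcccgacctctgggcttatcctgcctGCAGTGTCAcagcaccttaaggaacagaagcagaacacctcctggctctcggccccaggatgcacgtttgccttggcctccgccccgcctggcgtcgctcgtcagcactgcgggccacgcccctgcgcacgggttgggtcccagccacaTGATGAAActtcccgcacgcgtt
Got1, chr19:43524606-43524855, minus strand: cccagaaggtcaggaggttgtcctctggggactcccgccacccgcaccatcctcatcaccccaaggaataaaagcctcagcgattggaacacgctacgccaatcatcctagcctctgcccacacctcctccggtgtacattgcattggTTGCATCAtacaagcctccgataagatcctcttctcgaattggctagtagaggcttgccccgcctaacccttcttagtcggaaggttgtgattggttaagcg
Slc38a2, chr15:96699729-96699978, minus strand: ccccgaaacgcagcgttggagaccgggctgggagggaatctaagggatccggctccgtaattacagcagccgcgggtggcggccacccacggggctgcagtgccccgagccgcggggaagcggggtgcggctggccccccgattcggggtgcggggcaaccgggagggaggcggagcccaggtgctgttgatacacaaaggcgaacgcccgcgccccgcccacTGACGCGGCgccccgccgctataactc

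The Asns match reads TGATGAAA, and the Got1 match reads TTGCATCA on the printed strand, which is TGATGNAA on the other. Asns and Got1 rose 1.79- and 2.07-fold, and Slc38a2 rose 1.65-fold. Outcomes of the 4 genes with no match in the window were mixed: Gpt2 and Glul rose 1.98- and 1.43-fold, and Got2 and Glud1 did not pass.

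Beyond the 9 genes, a list of 90 others from glutamine, glutamate, aspartate and asparagine metabolism was followed, of which 75 were expressed enough to be tested. Of these 31 passed (41.3%, against 43.1% of all genes), 23 higher and 8 lower, so that the share passing was close to the background. The share higher was 30.7% against 21.6% of all genes, and the share lower was 10.7% against 21.5%. The median log2 fold change was 0.12. This list was also chosen with earlier results of these data known, so its shares are a description too. Among 41 enzymes tested, 8 were higher (19.5%), 4 were lower (9.76%) and the median was 0.02. Among 22 transporters 6 were higher (27.3%), 4 were lower (18.2%) and the median was -0.11. Among 12 regulators 9 were higher (75%) and 0 lower (0 also at an unadjusted p-value under 0.05 and with DESeq2).

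Of the aminotransferases of the wider list that were tested, Psat1 and Bcat1 rose, Oat fell, and Gpt, Bcat2, Kyat1, Kyat3 and Abat did not pass. Psat1, phosphoserine aminotransferase of serine synthesis, rose from 285 ± 16.0 to 558 ± 42.1 CPM (n = 3, SD; log2 change 0.97, edgeR, BH-adjusted p = 1.46e-07). Bcat1, the cytosolic branched-chain aminotransferase, rose from 128 ± 21 to 232 ± 10.2 CPM (n = 3, SD; log2 change 0.86, edgeR, BH-adjusted p = 8.82e-06). Oat, the mitochondrial ornithine aminotransferase, which links ornithine to glutamate semialdehyde, fell instead, from 262, 235 and 226 CPM in DMSO to 134, 134 and 133 CPM with erastin (log2 fold change -0.85, edgeR, BH-adjusted p = 5.52e-07). The genes of proline breakdown and proline synthesis around glutamate semialdehyde went opposite ways. Aldh4a1, which oxidises it to glutamate in proline breakdown, fell by 0.90 on the log2 scale (edgeR, BH-adjusted p = 4.66e-05), and Aldh18a1, which makes it from glutamate for proline synthesis, rose by 0.35 (edgeR, BH-adjusted p = 0.000791). Ogdh, a subunit of the complex that takes 2-oxoglutarate onward in the citric acid cycle, fell by 0.49 on the log2 scale (edgeR, BH-adjusted p = 0.000325).

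Among enzymes that spend the amide nitrogen of glutamine, Gfpt2 and Pfas rose in every alternative run. Gfpt1, Ppat, Cad, Ctps, Ctps2 and Nadsyn1 did not pass (edgeR, BH-adjusted p = 0.0608, 0.171, 0.171, 0.0976, 0.224 and 0.809). Gfpt2, which starts hexosamine synthesis, rose from 25.9 ± 2.88 to 47.3 ± 14.6 CPM (n = 3, SD; edgeR, BH-adjusted p = 0.00166), with erastin replicate 3 at 30.4 CPM and the other erastin libraries at 56.5 and 55.1 CPM. Pfas, of purine synthesis, rose by 0.40 on the log2 scale (edgeR, BH-adjusted p = 0.00501). Gmps, which makes guanosine monophosphate, and Adss, which consumes aspartate in purine synthesis, were higher by 0.35 and 0.25 (edgeR, BH-adjusted p = 0.0452 and 0.0354). Gmps did not pass without DMSO replicate 1, DMSO replicate 3, erastin replicate 1 or erastin replicate 2 (edgeR, BH-adjusted p = 0.107, 0.177, 0.211 and 0.0713), nor after an offset for GC content and transcript length (log2 fold change 0.11). Adss did not pass without DMSO replicate 2, DMSO replicate 3, or erastin replicate 1, 2 or 3 (edgeR, BH-adjusted p = 0.166, 0.0541, 0.064, 0.0827 and 0.0779), and after the offset it was 0.17.

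Among the transporters Slc7a11, the glutamate-exporting subunit of the antiporter that erastin blocks, had the largest change, from 16.1, 11.5 and 15.6 CPM in DMSO to 213, 220 and 141 CPM with erastin (log2 fold change 3.75, edgeR, BH-adjusted p = 1.01e-09). Slc7a5, which exchanges intracellular glutamine for large neutral amino acids, rose by 0.81 log2 units, and its partner chain Slc3a2 by 0.93 (edgeR, BH-adjusted p = 1.06e-06 and 3.2e-07). Slc1a4, the closest relative of Slc1a5, rose from 94.9 ± 6.14 to 163 ± 3.13 CPM (n = 3, SD; log2 change 0.78, edgeR, BH-adjusted p = 1.74e-06). Slc1a3, a high-affinity glutamate uptake carrier of the same family, was scarce and fell from 5.46 ± 1.25 to 1.67 ± 0.802 CPM (n = 3, SD; edgeR, BH-adjusted p = 0.0035). Of the mitochondrial carriers that, with Got1, Got2, Mdh1 and Mdh2, form the malate-aspartate shuttle, the 2-oxoglutarate carrier gene Slc25a11 fell from 77.2 ± 2.82 to 55.5 ± 0.867 CPM (n = 3, SD; edgeR, BH-adjusted p = 0.000334). The aspartate-glutamate carrier genes Slc25a12 and Slc25a13 stood at -0.008 and -0.21 on the log2 scale and did not pass.

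The regulators that were followed act mostly in the amino acid response. Eif2ak4, Mycn and Sirt4 did not pass, at 0.04, -0.94 and 0.17 on the log2 scale (edgeR, BH-adjusted p = 0.836, 0.228 and 0.642). Atf4 measured 204, 210 and 236 CPM with DMSO and 425, 408 and 410 CPM with erastin, without overlap (log2 fold change 0.93, edgeR, BH-adjusted p = 1.66e-07). Its dimer partners Cebpb and Cebpg rose by 0.67 and 0.58 log2 units (edgeR, BH-adjusted p = 0.000114 and 0.000438). With the GC and length offset Cebpb was higher by 1.07. Trib3 and Sesn2, targets and feedback genes of the response, rose by 0.56 and 0.62 (edgeR, BH-adjusted p = 3.68e-05 and 1.72e-05). Ddit3, which encodes CHOP, passed at 0.38 (edgeR, BH-adjusted p = 0.0199) but not without DMSO replicate 1 or erastin replicate 3 (0.28 and 0.25, edgeR, BH-adjusted p = 0.0987 and 0.102). Myc, known to drive genes of glutamine use, rose from 46.7 ± 3.95 to 131 ± 15.0 CPM (n = 3, SD; log2 change 1.49, edgeR, BH-adjusted p = 4.24e-08), and Nfe2l2, which encodes NRF2, rose by 0.95 (edgeR, BH-adjusted p = 1.96e-07).

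**Figure D5:**
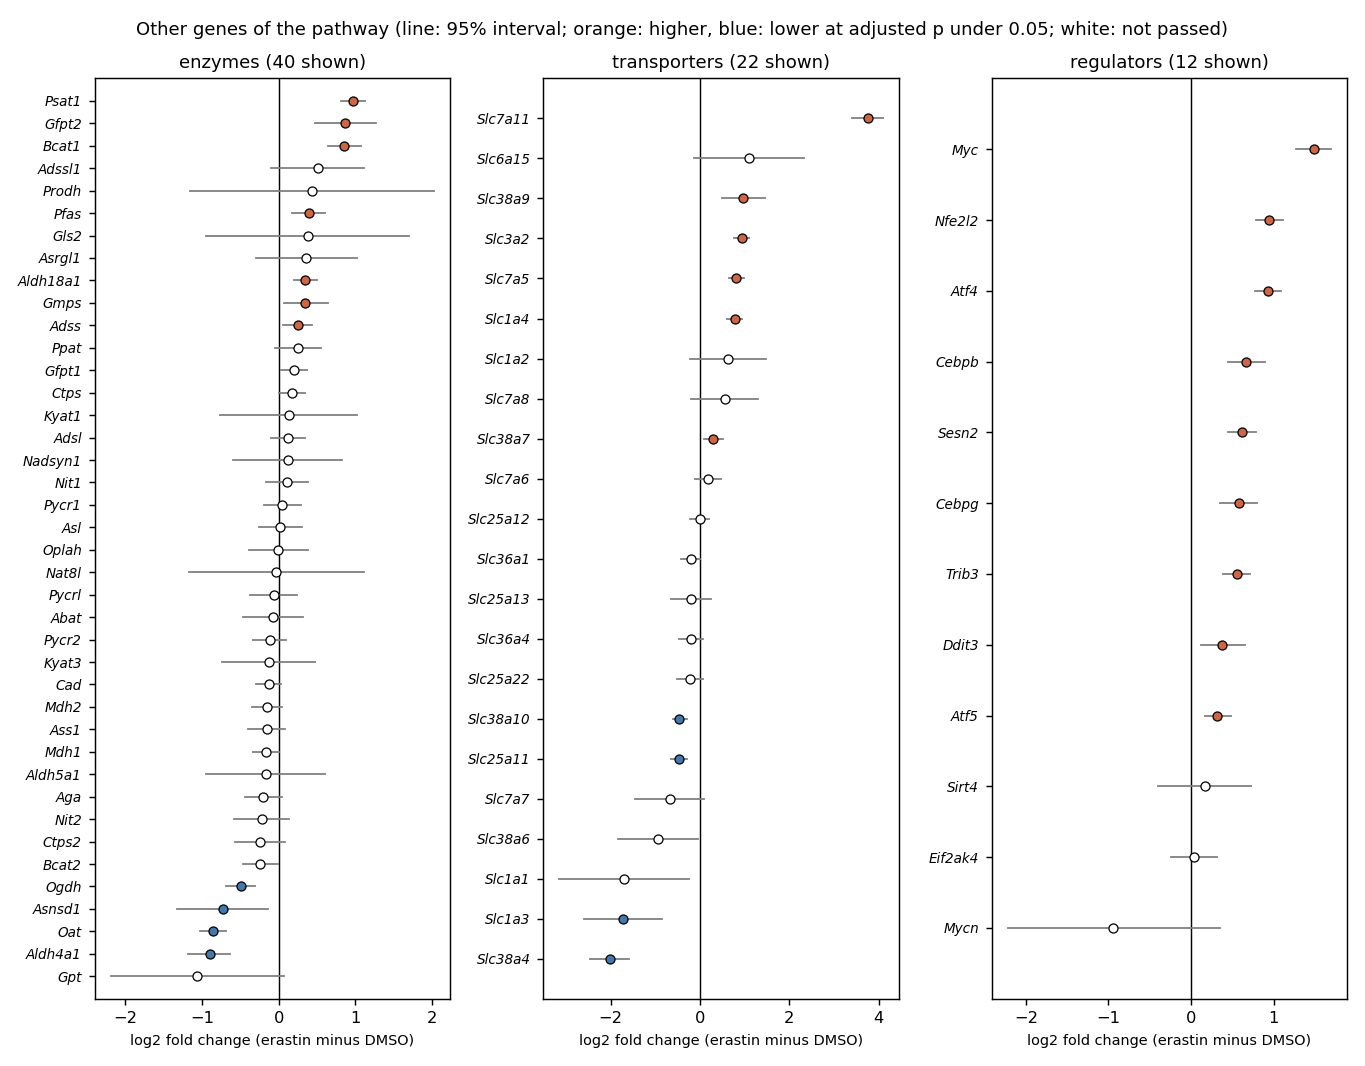
Log2 fold change (erastin minus DMSO, with 95% interval) of 74 of the 75 tested genes of the wider list, in panels of 40 enzymes, 22 transporters and 12 regulators, each panel with its own axis range; orange points were higher and blue points lower at an adjusted p-value under 0.05, white points did not pass. Enzymes and transporters lie on both sides of 0, and the 9 coloured regulators are all on the right.

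For each of the 7 genes that rose, the 3 protein-coding genes with the nearest profile over the 6 libraries were listed, by the root mean square difference of centred log2 CPM among 10801 others with a mean count of at least 50. Slc39a6 lay nearest to Slc38a1 (0.0244), Chchd10 to Slc1a5 (0.0318) and Lama5 to Asns (0.0372). Tnfrsf12a was listed for both Got1 and Slc1a5. None of the 21 entries was one of the 9 genes or of the 90 in the wider list (0 of 21). With 2 treatments the measure mainly finds genes with an equal fold change.

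Read assignment bears on some of these values, since the strand setting of the counting is not given in the sources used here. In 5 genes, Asns, Got1, Slc1a5, Slc38a1 and Slc38a2, no stretch of 50 bases of the longest transcript was shared with a transcript of another gene, and their exons overlapped no other annotated gene. Got2 shared 32.3% of its 50-base stretches with the pseudogene Got2-ps1, which had 310 counts in all against 10385 for Got2, and overlapped a gene on the other strand. Glul shared 14.2%, mainly with the pseudogene Glns-ps1 (18 counts against 2786), and its exons also overlapped those of Teddm2 on the other strand (9 counts) and the microRNA gene Mir8114. Glud1 shared 8.17% and Gpt2 1.67% with transcripts of other genes, mainly pseudogenes. How reads in shared stretches were counted is not given in the sources used here, so the levels of Got2, Glul and Glud1 are less certain than those of the other 6.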

How the data were processed

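RNA of MEFs for 3 DMSO and 3 erastin libraries was depleted of ribosomal RNA, made into barcoded libraries and sequenced on an Ion Proton, per the labels' protocols. The deposited table holds whole-number read counts per gene, not normalized. The submitters' processing notes name HTSeq 0.9.1, SAMtools and mm10; aligner, annotation release and strand setting are not given in the sources used here. Columns were matched through the sample numbers in the labels, and 0 were left unused. GENCODE M21 (GRCm38, the assembly of mm10) gave a symbol to 42462 of 43346 identifiers, positions and lengths.

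Counts were filtered with filterByExpr (minimum count 10, total 15), leaving 14000 genes, scaled with TMM factors and tested with edgeR 4.0.16 (quasi-likelihood, treatment as the only term; R 4.3.3). P-values were Benjamini-Hochberg adjusted over all 14000 genes, with a threshold of 0.05. CPM are counts per 1000000 with those factors. Standard errors come from the fitted weights and quasi-dispersions, 95% intervals from the t distribution. The fit was also run on simulated counts in which few genes changed, unlike here. That run does not bear on the scaling of these data. Groups and replicate numbers come from the titles. Both groups carry the numbers 1 to 3, but the labels do not say that equal numbers mark a shared culture or day. No block was therefore used in the main fit. In a separate check, the deviations of equally numbered libraries were nearly uncorrelated, which does not settle whether they share a culture or day.

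The 9 genes and the wider lists were chosen with earlier results of these data known. Named were the 9 genes, up to 8 genes a direction in each class of the wider list with the largest changes past the threshold, the reaction partners and close paralogs of the 9, and the 3 nearest profiles; Pycr3 of the list was matched as Pycrl. Genes outside this rule were named after their values were seen. They include the markers, Mdh1, Mdh2, Slc25a12, Slc25a13, Slc38a6, Bcat2, Kyat1, Kyat3 and Abat. Gfpt1, Ppat, Cad, Ctps, Ctps2, Nadsyn1, Eif2ak4, Mycn, Sirt4 and pseudogenes are others. Within-library ratios used counts plus 0.5. A few results are not reported here. Alternatives were RLE and upper-quartile factors, total counts, 2 filters, the replicate block, DESeq2 1.42.0, a GC and length offset (mgcv 1.9.3), leaving out each library, a threshold of 0.01 and a prior of 5 counts for the ratios. A floor of 3 counts was worth 0.146 to 0.225 CPM; with PCR and no molecular identifiers it covers counting error only.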

Additional observations from a re-analysis of the deposited data

How the results depend on the processing

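The number of the 9 genes passing, 7, all higher, was the same under all 16 alternatives. The genes of the wider list passing ran from 26 to 33 (28 to 32 when 1 library was left out), and those of all genes from 4305, at the stricter threshold, to 6104. Of all genes passing, the share higher was 50.2% under TMM scaling, against 44.0% under upper-quartile and 57.1% under total-count scaling. With the replicate block 7 of the 9 genes and 5882 of all genes passed, against 6028 without it. Equally numbered libraries had correlations of 0.0284, 0.000818 and -0.00378 in their deviations from the group means. Values this small show no strong shared shift over the genes tested, but cannot tell whether equal numbers mark a shared culture or day. Of the named genes the block ended the call of Asnsd1 (log2 fold change -0.70, edgeR, BH-adjusted p = 0.0633). Glud1 changed sign to -0.034 with upper-quartile factors and to -0.031 without DMSO replicate 3, its values without 1 library running from -0.031 to 0.057, and the cause was not tested. The adjusted p-value of Glul reached 0.0437, its highest over 15 alternatives, without erastin replicate 2. Of 31 named genes of the wider list, 26 kept their direction and side of the threshold under all alternatives run; Adss, Asnsd1, Ddit3, Gmps and Slc38a7 did not. Of the genes named from the wider list, depth limits Gls2, Gpt, Kyat1, Nadsyn1, Slc1a3 and Slc38a6, with means under 6 CPM in both groups. Depth limits Mycn and Sirt4 in the same way. It also limits Slc38a9 with DMSO (5.56 CPM), and Kyat3 and Asnsd1 with erastin (5.64 and 4.17 CPM).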
